A study of Mus musculus with 36 samples.

Results

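The PLH samples are mouse bone marrow-derived dendritic cells that received 3 pattern recognition receptor ligands together, and they were compared with cells that had received only a pair of the same ligands. The labels name the ligands PAM, LPS and HMW, shortened to P, L and H, and the ligand label of the PLH libraries joins all of them. The labels do not spell out PAM or HMW. The members were chosen by title: 2 PLH libraries and the 2 libraries each of PL, PH and LH, 8 of the 36 libraries in the series. PLH against LH gives the change when P is added to L and H, PLH against PH the change when L is added, and PLH against PL the change when H is added. All cells came from C57BL/6 marrow of female mice aged 6 to 8 weeks, were grown with GM-CSF at 15 ng/mL, and were exposed for 6 hours, the controls (Ctrl) to no ligand. Each library was made by ATAC-seq from 50000 nuclei. Such cultures hold dendritic and macrophage-like cells side by side, so a change at a locus in these bulk libraries cannot be told apart as fewer cells of a type or less signal per cell. The labels do not say whether the 2 libraries of a group came from separate cultures or animals, so the p-values measure only the spread between these samples, which may be technical. The 3 comparisons share the PLH libraries, and their values are given side by side.

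Pattern recognition receptors sense microbial molecules and switch dendritic cells from sampling to alarm. Toll-like receptors at the cell surface and in endosomes signal through adaptor proteins to NF-kappaB and AP-1, which drive cytokine and chemokine genes, and through interferon regulatory factors to type I interferon. Secreted interferon then acts back on the cells through STAT factors that bind the interferon-stimulated response element (ISRE), and this switches on antiviral genes. LPS is the ligand of TLR4, which uses both branches. ATAC-seq cuts open chromatin with a transposase, so the reads in a peak measure how accessible a promoter or enhancer is.

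The promoters of 5 genes are printed, each under a peak that changed when a ligand was added to the pair. Cxcl10, Serpinb9, Selenop and Dhrs3 lost accessibility with P, and they were chosen because they are the 4 of 30 such genes whose promoter held an interferon-response motif. Lif gained accessibility with L. Each line holds the 250 bases before the start site, 5′ to 3′ on the gene's strand, from RefSeq on GRCm38.p6, whose coordinates are those of mm10. Capitals mark matches to the motifs searched on both strands, which were the ISRE (GAAA and GAAA with any 2 bases between them), AP-1 (TGANTCA), C/EBP (TTGCNNAA), PU.1 (GAGGAAGT) and NF-kappaB (GGG and TTCC with any 3 bases between them).
Cxcl10 promoter, chr5:92348890-92349139, minus strand: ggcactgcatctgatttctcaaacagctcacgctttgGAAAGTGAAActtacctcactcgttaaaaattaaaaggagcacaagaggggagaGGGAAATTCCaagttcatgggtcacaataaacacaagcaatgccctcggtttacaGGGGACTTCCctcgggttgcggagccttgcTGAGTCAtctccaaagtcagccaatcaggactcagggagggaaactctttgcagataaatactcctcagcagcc
Serpinb9 promoter, chr13:33004291-33004540, plus strand: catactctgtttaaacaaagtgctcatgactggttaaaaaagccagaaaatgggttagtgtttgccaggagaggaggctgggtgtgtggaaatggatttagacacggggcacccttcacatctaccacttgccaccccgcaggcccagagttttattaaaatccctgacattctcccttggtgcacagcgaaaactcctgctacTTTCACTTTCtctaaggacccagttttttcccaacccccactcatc
Selenop promoter, chr15:3270517-3270766, plus strand: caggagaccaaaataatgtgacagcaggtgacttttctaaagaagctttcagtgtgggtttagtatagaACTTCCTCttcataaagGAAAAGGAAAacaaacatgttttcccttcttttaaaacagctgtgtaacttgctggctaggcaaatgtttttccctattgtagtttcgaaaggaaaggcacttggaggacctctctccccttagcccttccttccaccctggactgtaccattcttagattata
Dhrs3 promoter, chr4:144892827-144893076, plus strand: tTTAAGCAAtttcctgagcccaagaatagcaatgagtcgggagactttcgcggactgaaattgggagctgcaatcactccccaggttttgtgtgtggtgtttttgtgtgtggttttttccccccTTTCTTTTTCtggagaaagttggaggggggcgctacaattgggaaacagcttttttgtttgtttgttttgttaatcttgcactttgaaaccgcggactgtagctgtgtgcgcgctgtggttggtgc
Lif promoter, chr11:4257318-4257567, plus strand: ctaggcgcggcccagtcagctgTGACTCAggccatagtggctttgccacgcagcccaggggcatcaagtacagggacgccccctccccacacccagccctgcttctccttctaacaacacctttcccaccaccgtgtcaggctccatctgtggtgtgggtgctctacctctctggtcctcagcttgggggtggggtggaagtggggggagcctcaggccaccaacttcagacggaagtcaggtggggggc
The window of Cxcl10, an interferon-inducible chemokine, held an ISRE match, GAAAGTGAAA, with its first base at -213 from the start site. It also held NF-kappaB matches at -159 and -104 and an AP-1 match at -74. The window of Serpinb9, an inhibitor of granzyme B, held an ISRE match at -46, read on the other strand. Those of Selenop, a selenium carrier, and Dhrs3, a retinal reductase, held ISRE matches at -164 and -126. The Lif window held an AP-1 match at -228, and Lif encodes a cytokine of the interleukin-6 family.

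Depth differed among the compared libraries, lowest in PL replicate 2 and highest in PH replicate 2. The 8 libraries held 20758061 to 35622043 counts in peaks (median 26703847), of which 46.9 to 53.8% lay in the mitochondrial peak, and 9593847 to 17084761 counts remained outside it. Replicates correlated with a Pearson r of 0.957 to 0.969 across peaks, which are not independent replicates, and differed beyond sampling noise (chi-square per degree of freedom 2.27 to 2.84). The Ctrl libraries had a higher mitochondrial share, 60.1 to 61.9%, than the P, L and H libraries, 44.1 to 53.4%, so comparisons with Ctrl cross that difference, whose part in them cannot be told apart from the ligand. Summed accessibility at dendritic cell marker genes was 464 to 486 CPM, counts scaled to library size in PLH, 466 to 482 in PL, 447 to 462 in PH and 424 to 430 in LH, and at macrophage markers 441 to 455, 441 to 457, 431 to 439 and 443 to 470. For neutrophil markers the sums were 107 to 113, 98.8 to 108, 112 to 115 and 100 to 104. Plasmacytoid dendritic cell markers summed to 368 to 376 CPM in PLH against 404 to 423 in PH, and B cell markers to 88.9 to 95.2 against 80.3 to 81.3. Mast cell and basophil markers summed to 29.9 to 32.3 CPM in PLH, 34.5 to 35.1 in PL, 27.4 to 29.5 in PH and 27.0 to 27.1 in LH. The dendritic cell ranges of PH and LH, the macrophage range of PH and the neutrophil range of LH did not overlap that of PLH. Nor did the ranges given for plasmacytoid, B and mast cell markers, or the plasmacytoid range of LH, 378 to 383 CPM. T cell markers summed to 49.0 CPM in both PLH libraries, 45.0 to 56.8 in PL, 42.6 to 45.0 in PH and 45.7 to 46.9 in LH. The part of these markers in the results was not tested. Of all marker peaks, taken within 10 kb of the genes, 1 neutrophil peak near Ltf was called, higher in PLH than in LH (log2 0.89, adjusted p = 0.0116). Cd8a, Gata1 and Hbb-bs, markers of T cells and red cells, had no tested peak within that distance.

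The number of peaks that changed depended on which ligand was added to the pair. A peak is counted as called at an adjusted p under 0.05 in edgeR's quasi-likelihood test, over 119464 tested peaks. Adding P to LH changed 652 peaks (0.546% of those tested), 410 higher (0.343%) and 242 lower (0.203%) in PLH. Adding L to PH changed 296 peaks (0.248%), 189 higher (0.158%) and 107 lower (0.0896%). Adding H to PL changed 1 peak (0.000837%), which was higher. At an unadjusted p under 0.05 the counts were 12841, 11965 and 6075 peaks, or 10.7, 10 and 5.09%. Against the mean of its pairs, PLH differed at 182 peaks (0.152%), 144 higher (0.121%) and 38 lower (0.0318%). Between the pairs themselves, PL and PH differed at 52 peaks (0.0435%), PL and LH at 367 (0.307%) and PH and LH at 1024 (0.857%).

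Each ligand changed fewer peaks on the pair of the others than alone. P against Ctrl changed 24529 peaks (20.5%), P on H 9022 (7.55%), P on L 1347 (1.13%) and P on LH the 652 above. L changed 26675 peaks on Ctrl (22.3%), 10106 on P (8.46%), 4512 on H (3.78%) and 296 on PH. H changed 12743 peaks on Ctrl (10.7%), 3182 on P (2.66%), 77 on L (0.0645%) and 1 on PL. The difference between a ligand's effect on the pair and its effect on Ctrl was itself called at 8752 peaks for P (7.33%), 10840 for L (9.07%) and 3483 for H (2.92%). Among the stimulated groups, PLH departed from the sum of the ligands' log2 effects at 631 peaks for L and H on P (0.528%), 52 for P and H on L (0.0435%) and 3078 for P and L on H (2.58%).

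**Figure D1:**
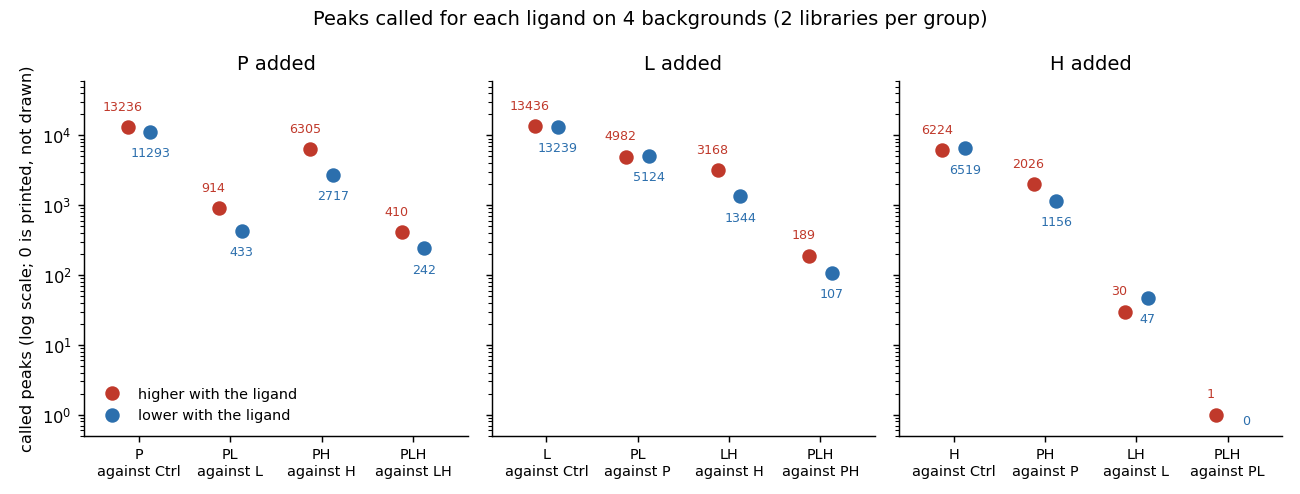
Number of called peaks (vertical axis, log scale, with 0 written as a number) when P, L or H was added to the 4 backgrounds named on the horizontal axis, red for higher and blue for lower. In each panel the counts for the pair of the other ligands are the lowest, down to 1 higher and 0 lower for H on PL.

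The split of calls into higher and lower moved with the scaling and the test. Of the peaks called with L added, 63.9% were higher, against 77.6% with total-count scaling, 56.8% with DESeq2's size factors in edgeR and 44.2% with DESeq2's Wald test. Of those called with P added, 62.9% were higher, against 82.4% with total-count scaling and 73.4% with offsets that depend on abundance. The counts also rested on having both libraries of a group. Without 1 of the 4 libraries compared, P added gave 134 (without LH replicate 1), 89 (without LH replicate 2), 195 (without PLH replicate 1) and 117 calls (without PLH replicate 2). The same for L added gave 78 and 52 without either PH library and 97 and 51 without either PLH library. Of 163 calls at the peaks examined singly, 22 held in all of 19 refits with other settings or without 1 library. The called peaks were the more accessible ones: their median was 8.87 CPM with P added and 10.5 CPM with L added, against 2.16 CPM over all tested peaks.

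Among called peaks with a mean of at least 1 CPM over the 8 libraries, the steepest fitted differences were at peaks of few counts. With P added they ran up to 3.20 at a peak 50544 bases from Sgip1 (2.87 and 4.28 CPM in PLH, 0.495 and 0.238 in LH) and down to -2.41 near Map4k3 (0.196 and 0.59 CPM against 2.17 and 1.98). With L added they ran from -2.04 at the peak nearest Zfp386 (1.30 and 0.443 CPM in PLH, 2.63 and 4.72 in PH) to 3.12 at the peak nearest Angpt1 (1.83 and 0.959 CPM against 0.263 and 0.0562). Every called peak had groups that did not overlap, as did 42.9% of all tested peaks with P added and 42% with L added. A called peak of Baiap2 below that mean had 0.913 and 0.959 CPM in PLH and 0 counts in both LH libraries, which is a log2 difference of at least 3.17 at a floor of 3 counts over the group.

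When P was added to LH, 8 of 264 tested peaks near the genes of the list of NF-kappaB subunits and feedback inhibitors rose, 5 at Socs3, 2 at Tnfaip3 and 1 at Rela. Tnfaip3 encodes A20, a ubiquitin-editing enzyme that shuts NF-kappaB signalling down. A peak 16 bases from the gene (chr10:18998085-19000894) had 32.4 and 32.3 CPM in PLH, 14.2 and 12.5 CPM in LH, 23.3 and 29.2 in PL, and 24.8 and 30.3 in PH. Every library with P thus lay above both LH libraries, by a log2 difference of 1.27 ± 0.15 (SE) for PLH against LH, with an adjusted p of 7.84e-10. On other backgrounds P raised it by 2.51 (on Ctrl), 1.29 (on L) and 1.75 (on H). The adjoining peak within the gene (chr10:19001098-19005823) had 29.9 and 24.5 CPM in PLH against 12.0 and 13.6 in LH (log2 1.10 ± 0.15, adjusted p = 1.59e-07). Over chr10:18998085-19203066, 9 of 57 tested peaks were called, all higher, by 0.65 to 2.63 on the log2 scale. This span was drawn from the first to the last called peak of a run. Those given below for Socs3, Il10, Ptges, Inhba, Nos2 and Unc5a were drawn likewise. The shares called within such spans are raised by that choice and are not shares of a whole locus. Both peaks at Tnfaip3 described here stayed called in all 19 refits.

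Socs3, an inhibitor of cytokine receptor signalling through JAK and STAT, showed the same arrangement. Of 8 tested peaks over chr11:117961991-117978488, 5 were called higher, by log2 0.47 to 1.22. The peak over the gene (chr11:117967672-117970447) had 50.7 and 50.4 CPM in PLH and 38.2 and 34.7 in LH (log2 0.47 ± 0.11, adjusted p = 0.0127). A flanking peak at chr11:117977334-117978488 had 19.6 and 18.8 CPM in PLH, 11.2 and 10.2 in LH, 19.3 and 20.3 in PL, and 18.3 and 15.7 in PH (PLH against LH 0.84 ± 0.16, adjusted p = 0.00104). There LH was the low group, PLH and PL overlapped, and PH lay between them and LH. At chr11:117962963-117964960 PLH stood above both LH and PH, with 32.1 and 32.1 CPM against 22.7 and 19.8 and against 22.7 and 17.7 (log2 0.59 and 0.67, adjusted p = 0.00809 and 0.00155).

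Rela encodes the p65 subunit of NF-kappaB. The peak over it (chr19:5636414-5638275) had 28.4 and 27.5 CPM in PLH, 22.7 and 22.2 in PL, 21.3 and 17.6 in PH, and 17.3 and 17.5 in LH. PLH held the highest values of these 8 libraries, and the difference was called against LH (0.68 ± 0.13, adjusted p = 0.000859) and PH (0.52 ± 0.13, adjusted p = 0.0331). It was not called against PL (0.32, adjusted p = 0.959). P on Ctrl, on L and on H called no change at this peak.

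Called peaks also rose near several other genes when P was added, which were chosen after their values were seen. Il10 encodes an anti-inflammatory cytokine, and 3 of the 4 tested peaks over chr1:131000824-131006239, 13606 to 18568 bases from the gene, were higher by log2 1.77 to 2.00. The nearest of them (chr1:131005515-131006239) had 4.63 and 7.52 CPM in PLH, 4.02 and 4.38 in PL, 4.41 and 3.15 in PH, and 1.30 and 1.75 in LH (PLH against LH 2.00 ± 0.35, adjusted p = 0.000195). LH again lay below every library that had received P. These are low values, and with no ligand the peak had 0.546 and 0.193 CPM.

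Ptges makes prostaglandin E2, and 3 of 5 tested peaks over chr2:30912911-30930266 were higher by 0.41 to 0.84. Inhba, which encodes the subunit of activin A, had 4 called peaks of 38 over its region, 0.82 to 1.59 higher. The peak over Saa3, an acute-phase protein gene, had 29.2 and 27.1 CPM in PLH and 18.7 and 16.6 in LH (0.67, adjusted p = 0.0048), while PL was above both with 42.6 and 37.9. A peak near Il1a, an alarm cytokine gene, had 3.33 and 4.20 CPM in PLH and 1.48 and 0.952 in LH (1.59, adjusted p = 0.0278).

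At Cxcl3, a neutrophil-attracting chemokine gene, PLH lay between LH and PH. P alone gave 20.3 and 25.3 CPM, L alone 6.15 and 6.79, LH 4.89 and 4.60, PH 14.1 and 12.9, and PLH 9.06 and 8.78. Adding P to LH raised it (0.91 ± 0.23, adjusted p = 0.0269), and the PLH libraries overlapped neither LH nor PH. PLH against PH was not called (-0.60, adjusted p = 0.209). A larger gain was at Zfp558, a zinc finger gene (chr9:18456384-18457323), with 12.9 and 15.3 CPM in PLH and 4.14 and 3.25 in LH (1.92 ± 0.25, adjusted p = 2.06e-08). P alone gave 11.2 and 10.2 CPM there, against 0.328 and 0.579 in Ctrl.

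**Figure D2:**
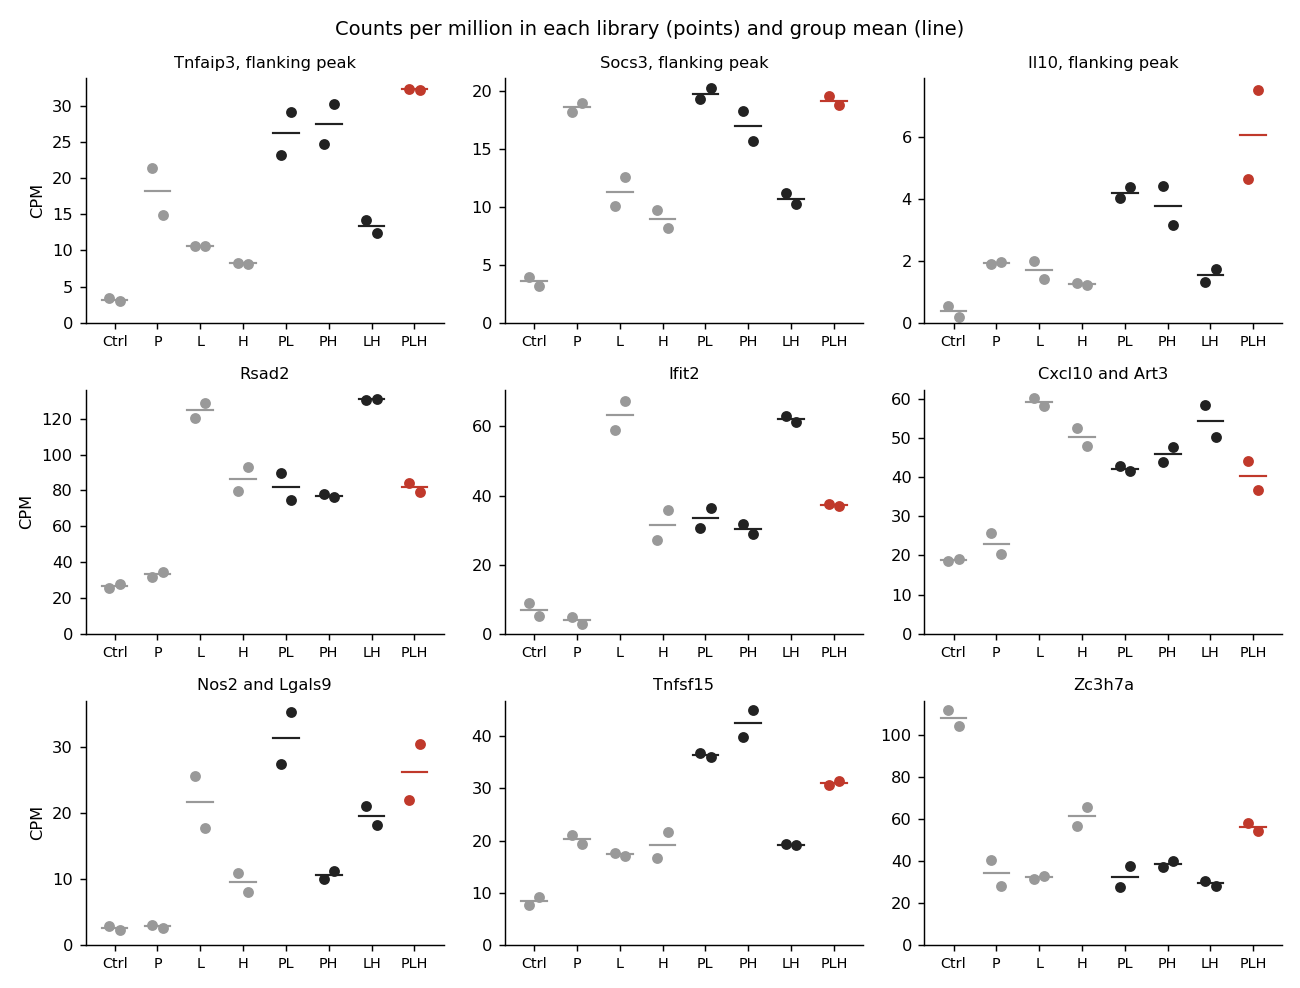
Accessibility in CPM (vertical axis, from 0) at 9 peaks in the Ctrl, single, pair and PLH libraries (horizontal axis), with a point per library and a line at each group's mean. At the peak beside Tnfaip3 the PLH libraries sit at 32.4 and 32.3 CPM above LH at 14.2 and 12.5, and at Rsad2 they sit at 84.3 and 79.0 CPM below LH at 131 and 131.

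Adding P to LH lowered 12 of 361 tested peaks near genes of the interferon list and raised 1. Rsad2, which encodes the antiviral protein viperin, had 84.3 and 79.0 CPM in PLH and 131 and 131 in LH over chr12:26438731-26453446. PL had 89.5 and 74.9 CPM, PH 77.8 and 76.2, and L alone 121 and 129. The groups with P thus lay together below LH and L, and PLH against LH was -0.68 ± 0.09 (adjusted p = 2.72e-08). Adding P to L lowered the peak as well (-0.60, adjusted p = 9.7e-07), whereas P alone on Ctrl raised it (0.30, adjusted p = 0.026), from 25.6 and 28.0 to 31.4 and 34.7 CPM. On H the change was not called (-0.17).

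Cmpk2, a nucleotide kinase gene beside Rsad2, had 3 called peaks, lower by log2 1.27 to 1.51. The one at chr12:26479545-26481889 had 8.48 and 5.75 CPM in PLH and 16.2 and 18.4 in LH (-1.27 ± 0.20, adjusted p = 1.59e-05). At Ifit2, an antiviral RNA-binding protein gene, the peak over chr19:34572687-34579247 had 37.5 and 37.0 CPM in PLH, 63.1 and 61.3 in LH, 59.0 and 67.5 in L, 30.5 and 36.4 in PL, and 31.8 and 29.0 in PH. PLH against LH was -0.74 ± 0.11 (adjusted p = 1.09e-05), and P on L was -0.93. The Rsad2 and Ifit2 calls held in all 19 refits.

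The peak that spans the Cxcl10 promoter printed above and the overlapping gene Art3 (chr5:92344162-92349984) had 44.2 and 36.6 CPM in PLH and 58.5 and 50.2 in LH (-0.43 ± 0.10, adjusted p = 0.018). Ctrl had 18.6 and 19 CPM there, so PLH remained above Ctrl while below LH. Of the other printed promoters that fell with P, Serpinb9 went from 29.8 and 35.1 CPM in LH to 23.3 and 22.6 in PLH (-0.49, adjusted p = 0.0291). Selenop went from 18.6 and 17.9 to 12.5 and 11.1 (-0.63, adjusted p = 0.022), and Dhrs3 from 19.4 and 22.4 to 12.9 and 12.8 (-0.69, adjusted p = 0.00458). Unlike at Cxcl10, PLH lay below Ctrl at these peaks. Ctrl had 36.6 and 32.0 CPM at Serpinb9, 28.3 and 29.0 at Selenop and 51.9 and 58.0 at Dhrs3. L alone was also below Ctrl, with 18.4 and 17.6 CPM at Selenop and 17.9 and 20.9 at Dhrs3.

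Lower peaks of the interferon list also lay near Ifih1 and Gbp5. Ifih1, the RNA sensor MDA5, had 3 lower peaks, and the most accessible of these, 3612 bases from the gene, had 34.3 and 36.5 CPM in PLH and 47.9 and 52.8 in LH (-0.51, adjusted p = 0.00959). The others were lower by 1.48 and 1.79 on the log2 scale. Gbp5, a guanylate-binding protein gene, fell by 0.90 on the log2 scale, from 27.7 and 33.8 CPM in LH to 16.2 and 16.5 in PLH (adjusted p = 0.00838). PL was spread there, with 35.0 and 20.1 CPM.

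Single genes had peaks that moved both ways. Usp18, which removes the ubiquitin-like ISG15 and restrains the interferon receptor, had a peak at 9.13 and 9.66 CPM in PLH and 15.5 and 17.3 in LH (-0.80, adjusted p = 0.00667). Another peak, 2097 bases from the gene, had 2.67 and 2.66 CPM in PLH and 0.68 and 0.159 in LH (2.56, adjusted p = 0.00738). Irak3, an inhibitor of Toll-like receptor signalling, had a peak higher by 1.39 and another lower by 0.63. The peak 849 bases from Bace2, an aspartyl protease gene, fell from 77.3 and 73.3 CPM in LH to 41.9 and 44.5 in PLH (-0.80 ± 0.11, adjusted p = 2.31e-07). Acod1, which makes itaconate, was the most accessible of these loci, with 230 and 216 CPM in PLH against 285 and 293 in LH (-0.37, adjusted p = 0.004).

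Adding L to PH opened the Nos2 region. Nos2 encodes inducible nitric oxide synthase, and its neighbour Lgals9 encodes galectin-9. The peak across both (chr11:78959292-78963606) had 22 and 30.5 CPM in PLH, 9.93 and 11.3 in PH, 27.4 and 35.5 in PL, and 21 and 18.2 in LH. Every group with L lay above PH, and PLH against PH was 1.30 ± 0.17 (adjusted p = 3.08e-07). L raised the peak on every background, by 3.10 on Ctrl, 3.49 on P and 1.04 on H. Of 8 tested peaks over chr11:78949235-78963606, 5 were called, all higher, by 1.30 to 2.53.

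Unc5a, a netrin receptor gene, had 5 of 6 tested peaks higher over chr13:54993938-55005571, by 0.90 to 1.33. One of them (chr13:54995668-54998390) had 15.6 and 13.4 CPM in PLH, 7.63 and 5.84 in PH, and 17.2 and 20.9 with L alone (1.11 ± 0.19, adjusted p = 0.000168). The peak over the Lif promoter printed above (chr11:4256978-4257569) had 4.17 and 5.53 CPM in PLH, 1.64 and 2.19 in PH, 1.29 and 2.34 in PL, and 2.91 and 2.30 in LH. PLH held the highest values of the 8 libraries, and the difference from PH was called (1.32 ± 0.33, adjusted p = 0.0456). Those from PL (1.45, adjusted p = 0.308) and LH (0.88, adjusted p = 0.239) were not.

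Among transcription factors and adaptors, a Fosl2 peak had 6.20 and 4.57 CPM in PLH and 2.37 and 1.07 in PH (1.67, adjusted p = 0.00358). The Jund peak had 63.5 and 69.5 CPM against 53.7 and 48.6 (0.38, adjusted p = 0.0343). Both genes encode AP-1 subunits. The peak at Traf3, an adaptor of the interferon branch, had 38.2 and 36.8 CPM against 27.6 and 24.7 (0.52, adjusted p = 0.0109). Dhx58, an RNA sensor gene, had 58.2 and 55.0 CPM against 42.8 and 42.6 (0.40, adjusted p = 0.0388).

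Other peaks lost accessibility when L joined PH. A peak within Ets1, a lymphoid transcription factor gene (chr9:32709514-32710305), had 12.8 and 14.2 CPM in PLH, 24.3 and 23.0 in PH, 13.9 and 17.1 in PL, and 34.3 and 35.6 in Ctrl (PLH against PH -0.81 ± 0.14, adjusted p = 0.000163). The peak 9093 bases from Agtr1b, an angiotensin receptor gene, had 14.5 and 12.0 CPM in PLH and 24.5 and 25.1 in PH (-0.90 ± 0.14, adjusted p = 3.33e-05). PL and LH were low as well, at 16.6 and 14.9 and at 16.8 and 19.8. The peak beside Atf3, an AP-1-related repressor gene, lies 907 bases from Fam71a, and it was lower in PLH than in both PH (-0.71, adjusted p = 0.00935) and LH (-0.80, adjusted p = 0.000958).

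Tnfsf15, which encodes the T cell costimulator TL1A, had a peak called in opposite directions with P and with L added. The peak over chr4:63733434-63742661 had 30.7 and 31.4 CPM in PLH, 36.8 and 36.1 in PL, 39.9 and 44.9 in PH, and 19.2 and 19.2 in LH. PLH lay between LH and PH without overlap, higher than LH by 0.69 (adjusted p = 0.000235) and lower than PH by 0.45 (log2 -0.45, adjusted p = 0.0485). The call against LH held in all 19 refits and that against PH in 9. The latter was lost under total-count scaling, with offsets, with 16 libraries, after thinning and without any 1 of the PH, LH or PLH libraries. A neighbouring peak (chr4:63722585-63728894) had 25.3 and 29.3 CPM in PLH, 42.5 and 44.5 in PH, and 27.0 and 27.0 in LH, and was called against PH (-0.68, adjusted p = 0.000273) but not against PL (-0.45, adjusted p = 0.516). Of the peaks called in both of these comparisons, 67 were higher in each, 13 lower in each and 2 went opposite ways, the other near Csrnp3. Both comparisons share the PLH libraries. Of the 67 peaks, 34 were among the repeat-like peaks described below, which were in part chosen by calls in both comparisons. Of the 13 lower peaks, 0 were.

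Adding H to PL called a peak within Zc3h7a alone (chr16:11143787-11144432), a gene for a zinc finger RNA-binding protein. It had 57.9 and 54.5 CPM in PLH, 27.4 and 37.4 in PL, 37.1 and 39.9 in PH, 30.5 and 28.2 in LH, and 112 and 104 in Ctrl. PLH stood above every pair while below Ctrl, by 0.81 ± 0.14 against PL (adjusted p = 0.049), 0.94 against LH (adjusted p = 7.3e-05) and 0.55 against PH (adjusted p = 0.0548). H alone lowered this peak on Ctrl (-0.82), to 56.6 and 65.8 CPM, and on P and on L its change was not called (0.17 and -0.13). The call against PL held in 8 of the 19 refits, and leaving out PL replicate 2, the shallowest of the 8 libraries, gave 21 calls in place of 1, of which 1 was shared.

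The width of the intervals sets what could be seen when H was added. At peaks of 30 CPM or more (4192 peaks), the median half-width of the 95% interval of the log2 difference was 0.213 and the median absolute difference 0.0744. At 10 to 30 CPM (13450 peaks) these were 0.314 and 0.114, and under 1 CPM the half-width was 1.4. With P added, the median absolute difference at 30 CPM or more was 0.099, with a half-width of 0.21, and with L added 0.0931, with 0.209. At Rsad2 the interval for PLH against PL ran from -0.19 to 0.17, and at Ifit2 from -0.07 to 0.40, whereas at the Tnfaip3 flanking peak it ran from 0.03 to 0.60 (adjusted p = 0.978).

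Most peaks near the genes of every list were not called. Each list was described by its tested peaks within 10 kb of its genes, and the median over all tested peaks was 0.00 in each of the comparisons. The interferon list had 361 tested peaks near 35 of its 38 genes, of which 1 was higher and 12 lower with P added (3.6% called, against 0.546% of all), with a median log2 difference of -0.12 and 38.8% above 0. The list of inflammatory cytokines and chemokines had 193 peaks, with 3 higher and 0 lower (1.55%), a median of 0.43 and 82.9% above 0. The list of NF-kappaB subunits and inhibitors had 264 peaks, with 8 higher and 0 lower (3.03%) and a median of 0.11. Toll-like receptors, RNA sensors and adaptors had 1 higher and 5 lower of 280 (2.14%), with a median of -0.07, and Ifih1 belongs to this list and to the interferon list. Over the 19 refits the medians kept their sign, from -0.18 to -0.07 for the interferon list, 0.37 to 0.47 for the inflammatory list and 0.09 to 0.16 for the NF-kappaB list. The interferon list had 4 to 16 peaks lower, the fewest without PLH replicate 2 (4), LH replicate 2 (5), PLH replicate 1 (6) or LH replicate 1 (7), and the NF-kappaB list 4 to 10 higher, with 4 without any 1 of those libraries. The inflammatory list had 0 to 5 higher, with 0 without LH replicate 2 or PLH replicate 1 and 1 without LH replicate 1 or PLH replicate 2.

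With L added, the inflammatory list had 7 peaks higher and 0 lower (3.63%, against 0.248% of all), with a median of 0.22 and 65.8% above 0. Over the 19 refits it had 1 to 7 higher, with 2 without either PH library, 3 without PLH replicate 1, 1 without PLH replicate 2 and 3 after thinning, and DESeq2 called 2 higher and 1 lower, while the median stayed between 0.16 and 0.24. The 5 called peaks of the metabolic list (215 tested) were all at Nos2, and the same 5 peaks were among the inflammatory calls, beside a peak each near Lif and Tnf. The AP-1 list of 95 peaks had 2 higher and 1 lower and a median of 0.22, and the interferon list 1 higher and 1 lower (0.554%), with a median of 0.08. The NF-kappaB list had 2 higher and 0 lower (0.758%).

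No list had a peak called in PLH against PL by edgeR with all libraries and the settings above, or by DESeq2. The interferon list had 1 lower peak with the 8 or the 16 libraries fitted alone and without PL replicate 2. In PLH against PL with all libraries, 5.09% of all tested peaks had an unadjusted p under 0.05 by edgeR. The interferon list had 34 such peaks of 361, 10 higher and 24 lower, and a median of -0.02. The inflammatory list had 9 of 193, 3 higher and 6 lower, also with a median of -0.02. The lists of lineage factors (218 peaks), MHC class II genes (58) and cholesterol genes (122) had 0 calls by edgeR in the 3 comparisons. Their counts at an unadjusted p under 0.05 by edgeR, with H, L and P added, were 16, 19 and 21 for lineage factors. They were 4, 5 and 6 for MHC class II genes and 3, 12 and 9 for cholesterol genes. Of all tested peaks, 5.09, 10 and 10.7% passed that p. DESeq2 called 1 lineage peak and 1 cholesterol peak with L added and 0 in their other comparisons. With abundance-dependent offsets or a minimum count of 30, edgeR called 1 lineage peak higher with L added and 1 with P added.

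**Figure D3:**
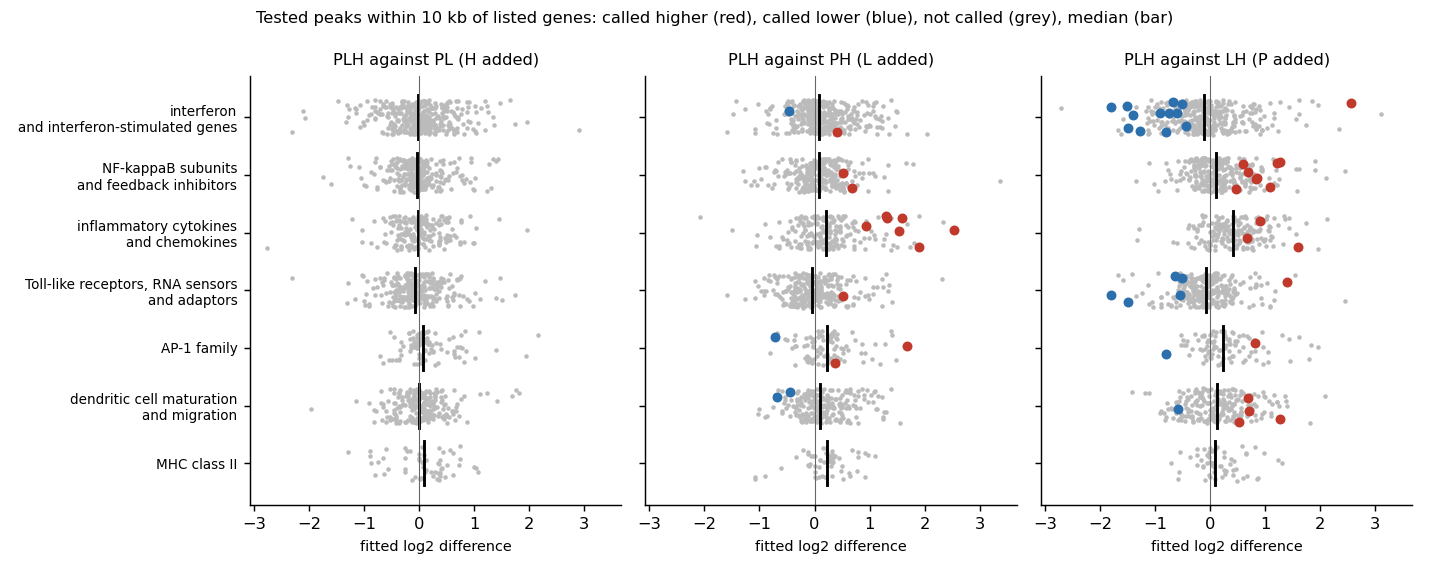
Fitted log2 difference (horizontal axis) of every tested peak within 10 kb of the genes of 7 lists (rows), in 1 panel per comparison, with called peaks in red (higher) or blue (lower), others in grey and a bar at the median; vertical scatter within a row carries no value. With P added the interferon row holds 12 blue points and the inflammatory row has its median at 0.43, while with H added no point is coloured.

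The peaks called in PLH were then looked up for the same ligand on other backgrounds, which share no library with that comparison. Of the 410 peaks higher with P on LH, 320 (78%) had the same sign for P on L, against 49.6% of all tested peaks, and 113 were called higher there and 2 lower (0.765 and 0.362% of all tested peaks). On Ctrl 276 (67.3%, against 47.9%) and on H 255 (62.2%, against 46.7%) had the same sign. Of the 242 lower peaks, 200 (82.6%) were lower on L, 200 (82.6%) on Ctrl and 184 (76%) on H, against 50.4, 52.1 and 53.3% of all peaks. P thus mostly moved these peaks in the same direction elsewhere. Exceptions among the higher peaks were 59 called lower on Ctrl (9.45% of all) and 75 called lower on H (2.27%). Without the repeat-like peaks described below, these were 39 and 44 of 373 peaks.

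For L the look-up differed by background. Of the 189 peaks higher with L on PH, 177 (93.7%, against 50.4% of all) were also higher with L on P, and 103 were called so (4.17% of all) and 0 opposite. On Ctrl 142 (75.1%, against 51.5%) had the same sign. On H only 60 (31.7%, against 48.7%) had it, with 18 called the same way (2.65% of all) and 56 called lower (1.13%). Without the repeat-like peaks described next, the share on H was 40.8% of 147, with 18 called the same way and 25 opposite. Among the 107 lower peaks, 102 (95.3%, against 49.6% of all) were also lower with L on P, 79 (73.8%, against 48.5%) on Ctrl and 65 (60.7%, against 51.3%) on H. On P, Ctrl and H, 77, 57 and 11 of them were called lower (4.29, 11.1 and 1.13% of all tested peaks). Called higher were 2, 12 and 7 (4.17, 11.2 and 2.65% of all).

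**Figure D4:**
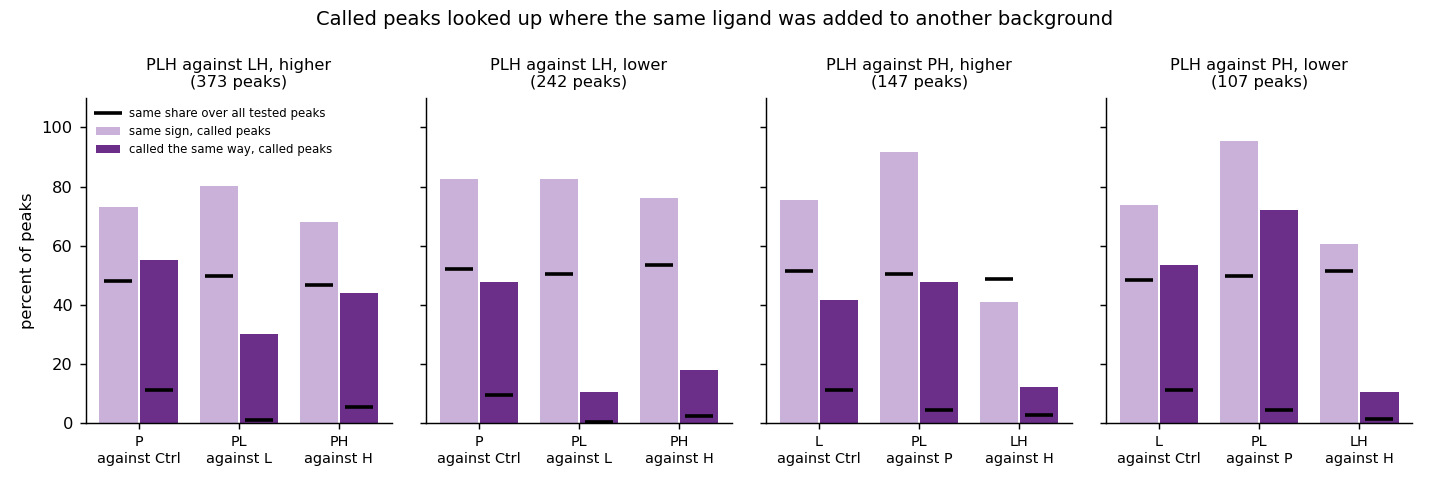
Percent of the peaks called in PLH, without repeat-like peaks, that had the same sign (light bars) or were called the same way (dark bars) when the same ligand was added to other backgrounds, with a black dash at the percent over all tested peaks. The peaks higher with L on PH had the same sign in 91.8% on P and in 40.8% on H.

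Some of the peaks higher in PLH lay in runs met in both comparisons, and these are called repeat-like here, although repeats and mappability were not tested. Runs of at least 3 called peaks no more than 100 kb apart that appeared both with P and with L added, together with chromosome Y and unplaced scaffolds, held 291 tested peaks. They gave 42 of the 296 calls with L added (14.2%) and 37 of the 652 with P added (5.67%), all of them higher, a share and a direction that the choice of runs called in both comparisons largely sets. With p-values adjusted again over the remaining peaks, the counts were 214 (126 higher, 88 lower) with L added and 578 (352 and 226) with P added. The mice are labelled female, yet 49 peaks of chromosome Y passed the filter, 8 of them called with L added and 5 with P added.

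The run on chr6:47650610-47771121, with 22 peaks near Gm40369 and Pdia4, had summed values of 1068 and 1049 CPM in PLH, 779 and 1032 in PL, 702 and 663 in PH, and 740 and 700 in LH. H alone gave 1066 and 1052 CPM and Ctrl 717 and 812. At Sfi1, a centrosome protein gene (chr11:3128970-3166073, 16 peaks), the sums were 369 and 346 CPM in PLH, 241 and 317 in PL, 229 and 262 in PH, and 249 and 266 in LH. PLH was above all pair libraries at both loci, and at both the PL libraries differed from each other more than those of any other pair. At the chr6 run H alone was near PLH, and L alone, with 1048 and 876 CPM, was also above PH and LH. At Sfi1 H alone (364 and 373) and Ctrl (306 and 367) reached the level of PLH.

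**Figure D5:**
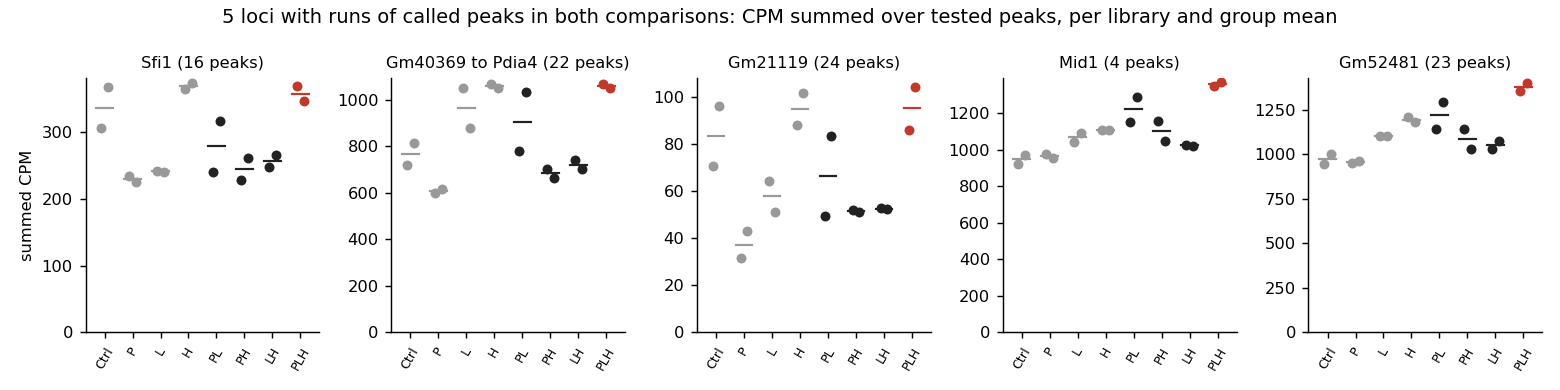
Summed CPM per library (vertical axis) over the peaks of 5 loci with runs of called or Y-linked peaks, for the Ctrl, single, pair and PLH groups (horizontal axis). At the chr6 run the PLH libraries stand at 1068 and 1049 and the LH libraries at 740 and 700.

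The called peaks differed in where they lay. With L added, 60 of 189 higher peaks (31.7%, exact 95% binomial interval 25.2 to 38.9) had an end of some protein-coding gene no more than 1 kb away, against 12 of 107 lower peaks (11.2%, 5.93 to 18.8) and 14.3% of all tested peaks. With P added the shares were 67 of 410 higher (16.3%, 12.9 to 20.3) and 45 of 242 lower peaks (18.6%, 13.9 to 24.1). The called peaks were also wider, with a median of 982 bases with L added and 876.5 with P added against 451 over all, and the part of width in these shares was not tested. The intervals cover counting error only, and neighbouring peaks share a locus.

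Promoters under the called peaks were searched for the motifs given above. Of 38 promoter windows of 30 genes under peaks that fell with P, 6 (15.8%) held an ISRE match, against 3.35% of all 21262 windows. The 6 windows belong to 4 genes, since Dhrs3 and Selenop each gave overlapping windows, so the count by gene is 4 of 30. C/EBP matches were in 9 windows (23.7%, against 10.2%) and NF-kappaB matches in 3 (7.89%, against 5.76%). Of 42 windows of 37 genes under peaks that rose with P, 1 (2.38%) held an ISRE match. Of 40 windows of 31 genes under peaks that rose with L, 0 held an ISRE match and 2 (5%, against 6.99%) an AP-1 match.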

How the data were processed

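The deposited table gives counts per peak for 36 ATAC-seq libraries, 18 groups of 2. The authors made these counts with Bowtie2 2.2.9, MACS2 (listed as version 1.4), bedtools and featureCounts on mm10, per the submitters' processing notes, which give no order or role for the tools. Duplicate removal, read shifting and the rule that merged peaks are not given in the sources used here, and counts of a wide peak sum over all of it. Library totals, outside the mitochondrial peak, ranged from 9593847 to 17084761 counts in the 8 libraries compared.

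Of 119751 peaks, the mitochondrial peak was left out, 286 fell below a minimum count of 10 by edgeR's filterByExpr, and 119464 were tested. edgeR 4.0.16 (R 4.3.3) fitted 1 coefficient per group over all 36 libraries with TMM scaling, leaving 18 residual degrees of freedom, and its robust quasi-likelihood test gave p-values that were Benjamini-Hochberg adjusted per comparison over all tested peaks. Errors are standard errors of the fitted log2 difference; CPM are counts scaled by edgeR's cpm to the TMM library size outside the mitochondrial peak. The procedure was tested on simulated data. Alternatives were DESeq2 1.42.0 and its size factors, total-count scaling, abundance-dependent offsets, other filters, fewer libraries, thinning, and leaving out libraries.

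The members and lists were chosen with earlier results of these data known. Peaks were named by the protein-coding gene they overlap, otherwise the nearest. The naming rule took, per comparison, the 8 highest and 8 lowest called differences with a mean of at least 1 CPM and groups that do not overlap, the 3 lowest p-values in each direction, all calls where there were 5 or fewer, the lowest p-value in each gene list, and 6 peaks called in several comparisons. Other called peaks of the lists, runs of neighbouring called peaks, repeat-like loci and the printed promoters were added after their values were seen. Distances to gene ends replace distances to start sites, and RefSeq promoter windows (17491 of 21896 protein-coding genes, 79.9%, on GRCm38.p6) replace peak sequences, since no genome was used here. Mx1, Mx2 and Cxcl11 had no match in the gene table. Same-numbered replicates of PLH, PL, PH and LH did not deviate together (6 correlations, -0.028 to 0.017), so the numbers were not treated as pairs. A result at a withheld locus is not reported here.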

Additional observations from a re-analysis of the deposited data

Results flagged for a closer look

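A ligand's effect on the pair of the others differed from its effect alone, tested as a contrast of both effects in edgeR, at 8752 peaks for P (2968 with the higher effect on LH, 5784 with the lower), 10840 for L (4222 and 6618) and 3483 for H (1232 and 2251). These comparisons use the Ctrl libraries, whose mitochondrial share was higher, and its part in the counts cannot be told apart from the ligands. Among the stimulated groups, L and H departed from additivity on P at 631 peaks (123 higher, 508 lower), P and H on L at 52 (45 and 7), and P and L on H at 3078 (1076 and 2002).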

How the results depend on the processing

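With 2 libraries per group, the counts of calls moved more than the direction of single peaks. PLH against PL (1 call) had 3 with total-count scaling, 0 with abundance-dependent offsets, a minimum count of 30, DESeq2's Wald test or an adjusted p under 0.01, 10 with the 8 or the 16 libraries fitted alone, and 0 to 21 when a library was left out. PLH against PH (296) had 536 with 8 libraries alone, 185 after thinning to one depth, 100 at an adjusted p under 0.01 and 51 to 368 when a library was left out, lowest without PLH replicate 2. PLH against LH (652) had 323 after thinning, 184 at an adjusted p under 0.01 and 89 to 675 when a library was left out, lowest without LH replicate 2. PLH against the mean of its pairs (182) had 119 after thinning, 79 at an adjusted p under 0.01, 109 without repeat-like peaks (a setting chosen after seeing the data) and 28 to 347 when a library was left out, lowest without PLH replicate 2 and highest without PL replicate 2.

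PL against PH (52) had 107 calls by DESeq2 and 101 with 16 libraries, and LH against L (77) had 356 with total-count scaling and 161 by DESeq2. The departure from additivity of P and H on L (52) had 203 and 84 under the same settings, and the difference in L's effect between PH and Ctrl (10840) had 17295 with total-count scaling. Apart from the fewer samples or counts of the smaller fits, the cause of these shifts was not tested.

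No label says whether the replicate numbers pair the samples, so pairing was tried as an alternative. With the replicate number as a block, the counts were 0 for PLH against PL, 288 against PH, 635 against LH and 176 against the mean of the pairs. Of 66 calls at the peaks named by rule, 17 held under every setting and 0 reversed.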
